A study of Mus musculus with 10 samples.

Results

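Metallothioneins and zinc transporters were described in 5 tissues of aged and young mice, as 7 genes: the metallothioneins Mt1 and Mt2, the importers Slc39a4, Slc39a5 and Slc39a14, and the exporters Slc30a1 and Slc30a10. They were taken as the probe sets whose platform annotation names only 1 of these genes, which gave 13 probe sets for 7 of the 18194 genes on the array. These genes were chosen by their signals and age ratios on these same arrays, so their levels and ratios are descriptions and carry no test. The mice were males of the outbred ICR stock, kept singly under specific-pathogen-free conditions on the AIN-93 diet, and the labels name no engineered allele. The aged animals, sampled at 28 months, had arrived when 8 months old, and the young ones, sampled at 4 months, when 2 months old. Equal amounts of RNA were pooled over 9 aged or 6 young animals, separately for distal colon, ileum, jejunum, liver and spleen. Every pool was hybridised to a single Affymetrix GeneChip (Mouse Genome 430). With 1 pooled array per tissue and age, no difference within a tissue has a replicate check, no spread between mice can be given, and the number of arrays limits the precision. In the numbering of the series, the 28-month arrays of jejunum, ileum and distal colon stand apart from all other arrays. Every intestinal age ratio crosses that divide, and the liver and spleen ratios do not. Comparisons of intestine with liver or spleen at 28 months cross it too. What the divide stands for is not stated, and its part in the ratios and levels was not tested.

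Metallothioneins are small cysteine-rich proteins that bind zinc and copper in the cytosol. Their transcription is raised by zinc through the metal-sensing factor Mtf1, which binds metal response elements, and in liver also by glucocorticoids and by interleukin-6. Proteins of the Slc39 (ZIP) family carry zinc into the cytosol, and those of the Slc30 (ZnT) family carry it out of the cytosol to the outside or into organelles.

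A probe set's signal is in arbitrary units, scaled so that each array had a trimmed mean of 500, and signals below 111 units, the median of all signals, were set to that floor before a ratio was taken. Ratios are 28 over 4 months, and a gene was called higher or lower from 2-fold. A gene counted as measured where 1 or both ages of a tissue exceeded that floor. Where a gene had several probe sets, the one with the highest mean log2 signal stood for it. Levels are compared between arrays for the same probe set only. Ratios of probe sets of the same gene had a median SD, on the log2 scale, between 0.11 in jejunum and 0.14 in spleen, which is the internal error available.

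Markers of liver and spleen matched the labels, with Alb at 50608 units in liver at 28 months and 51037 units at 4 months, and Ms4a1 at 12818 units in spleen at 28 months and 14092 units at 4 months. Fabp6, an ileal marker, had 35831 units in ileum at 28 months and 20178 units at 4 months. Some arrays also held RNA of genes known from other organs. The spleen array of 4 months carried pancreatic acinar genes: 10 acinar genes summed to 1695 units in spleen at 28 months and to 49212 units at 4 months, and all 10 were called lower. Both jejunum arrays carried them too, at 73095 units at 28 months and 71975 units at 4 months. The part of that RNA in the jejunum levels and tissue orders given here was not tested. The arrays of ileum, distal colon and liver summed to between 3473 and 16580 units over both ages. In distal colon, which gave the top of that range, Cela1 alone had 15469 units at 28 months and 13671 units at 4 months, and 6 of the 10 genes at 28 months and 5 at 4 months were below the floor. Genes of the upper small intestine were high on the young ileum array, with Lct (lactase) at 92.1 units in ileum at 28 months and 14054 units at 4 months. A list of 14 genes taken as upper-intestinal summed to 157339 units in young ileum and 21848 units in aged ileum. In jejunum the list summed to 112584 units at 28 months and 166224 units at 4 months. Of the 14 genes 4 were called lower in jejunum and 0 higher. Cubn, one of the list, had 9856 units in ileum at 28 months and 8281 units at 4 months. In jejunum Cubn had 73.1 units at 28 months and 3631 units at 4 months. The part of position along the gut in the jejunum ratios was not tested. Every ileum ratio given here rests on that young ileum array.

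The promoters of the genes that moved together, Mt1 and Mt2, and of Slc30a1, another gene that Mtf1 is known to switch on, are shown first, since they hold matches to the core of the element through which zinc acts. Each is the 250 bases before the RefSeq start site on the plus strand of GRCm38.p6, 5′ to 3′, and capitals mark matches to the core of the metal response element, TGCACNC or TGCGCNC on either strand. Mt2 lies at chr8:94172368-94172617, Mt1 at chr8:94178839-94179088 and Slc30a1 at chr1:191906531-191906780.
Mt1: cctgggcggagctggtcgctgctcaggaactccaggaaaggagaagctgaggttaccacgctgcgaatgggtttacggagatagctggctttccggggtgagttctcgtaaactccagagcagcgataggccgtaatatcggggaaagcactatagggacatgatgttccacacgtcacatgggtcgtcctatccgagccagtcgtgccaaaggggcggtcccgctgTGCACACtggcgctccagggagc
Mt2: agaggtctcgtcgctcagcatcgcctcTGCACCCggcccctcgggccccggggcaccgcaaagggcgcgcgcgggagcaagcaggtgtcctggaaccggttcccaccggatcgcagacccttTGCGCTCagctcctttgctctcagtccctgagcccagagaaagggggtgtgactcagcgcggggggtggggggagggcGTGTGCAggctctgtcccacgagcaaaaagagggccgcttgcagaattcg
Slc30a1: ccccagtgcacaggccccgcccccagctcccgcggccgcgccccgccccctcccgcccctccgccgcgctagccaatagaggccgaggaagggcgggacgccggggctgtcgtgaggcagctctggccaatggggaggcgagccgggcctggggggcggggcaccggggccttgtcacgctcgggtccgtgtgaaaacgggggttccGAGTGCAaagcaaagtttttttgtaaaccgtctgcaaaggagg

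The search covered these bases and the 50 that follow the RefSeq start. Nothing outside that window was searched, so the counts below are for the window and not for all elements of a gene. Mt1 held 3 matches, of which TGCACAC lies before the start and TGCACTC and TGCGCTC lie after it. Mt2 held 4 matches, 3 before the start and 1 after it. Slc30a1 held 2, and Slc30a10 held 3, of which 2 overlap on opposite strands. The 2 start sites of Slc39a5 held 1 and 0. Of 32851 promoters of the same length, 25.7% held at least 1 match, 1.97% at least 3 and 0.517% at least 4. The core of the antioxidant response element, TGACNNNGC on either strand, had 1 match in Mt2, 1 in Slc30a1, 2 at the second start site of Slc39a5 and 0 in the other promoters searched here, and 12.4% of all promoters held it. Of the 7 genes 5 matched the promoter table, and Slc39a4 and Slc39a14 are named only. A match is a description of the letters and not evidence of binding.

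Over the 5 tissues 31 of the 35 gene and tissue pairs were measured, and 6 of these passed 2-fold, 3 of them higher and 3 lower at 28 months. Among all genes 1.43% of such pairs were called. Liver held 3 of the 6 (Mt1, Mt2 and Slc39a4), distal colon 2 (Mt1 and Mt2) and spleen 1 (Mt2). Jejunum and ileum held 0 of 7 each, where 1.22% and 2.51% of all genes were called in either direction. In jejunum 0.235% of all genes were called higher and 0.989% lower, and in ileum 0.847% higher and 1.66% lower. In distal colon 1.0% were called in either direction, 0.51% higher and 0.493% lower. In liver it was 1.44%, 1.28% higher and 0.158% lower, and in spleen 0.938%, 0.544% higher and 0.394% lower. Calls were made within each tissue, so leaving out a tissue only takes away its own pairs and is no check of the others. Outside spleen 5 of 27 pairs were called, outside ileum 6 of 24, and outside both 5 of 20. The smallest ratio inside the threshold was that of Mt1 in distal colon, at -1.03, and the largest outside it that of Slc30a1 in ileum, at 0.73, both on the log2 scale.

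**Figure D1:**
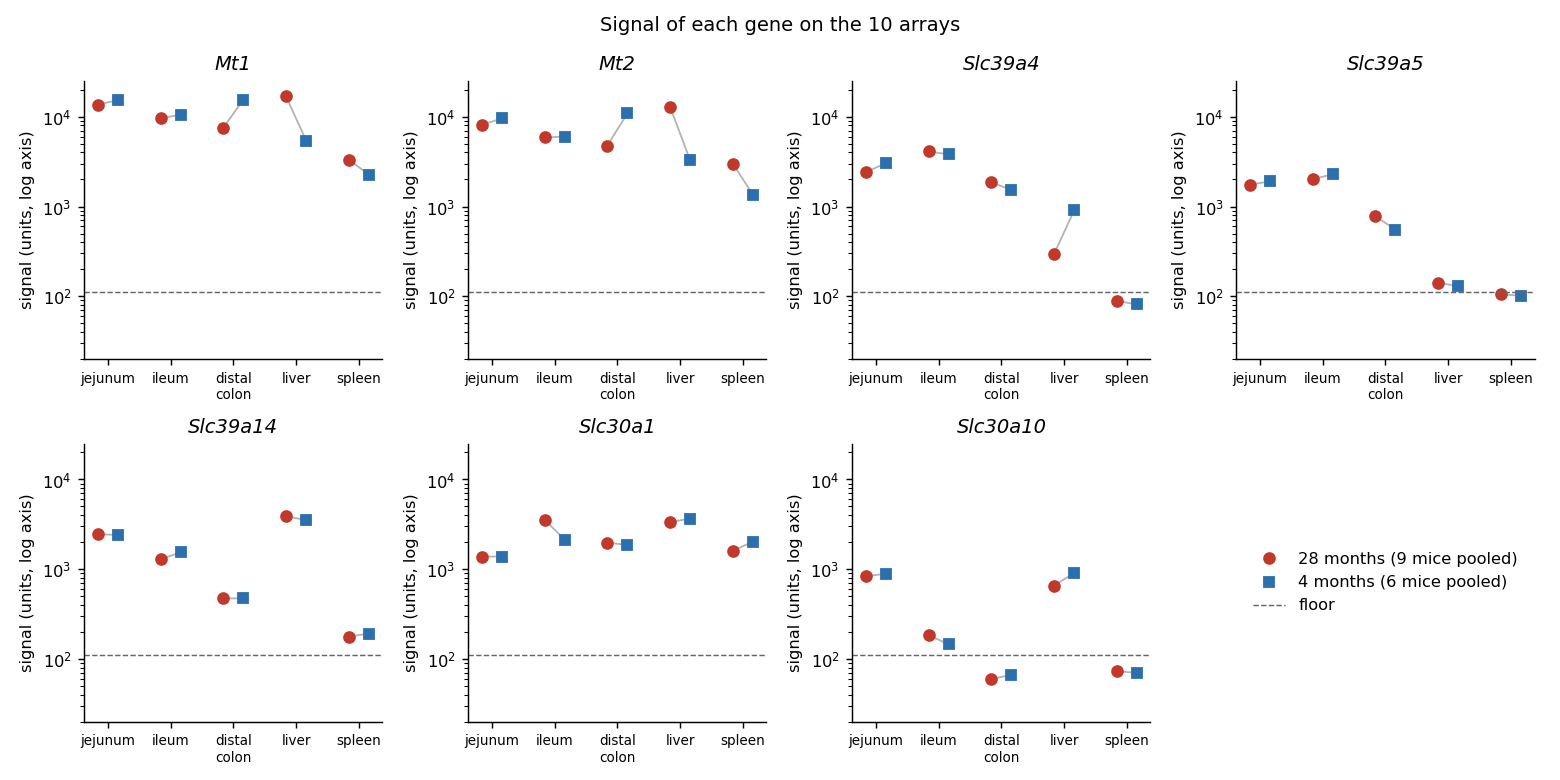
Signal of the 7 genes on the 10 arrays, 1 panel per gene, on a log axis in arbitrary units; circles are pools of 9 mice at 28 months, squares pools of 6 mice at 4 months, and the dashed line is the floor of 111 units. Mt1 and Mt2 lie higher at 28 months in liver and lower in distal colon, and Slc39a4 lies lower at 28 months in liver.

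Mt1 and Mt2 were both higher in the aged liver and both lower in the aged distal colon. In liver Mt1 had 16859 units at 28 months and 5436 units at 4 months, a 3.10-fold difference. Mt2 had 12889 units in liver at 28 months and 3274 units at 4 months, a 3.94-fold difference. On the 4-month arrays liver was thus below every intestinal segment for both genes, while on the 28-month arrays it was above every other tissue. The 28-month comparison with intestine crosses the divide in array numbering. Among 12033 genes measured in liver, the ratios of Mt2 and Mt1 stood at places 21 and 37 from the highest.

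A second, dimmer Mt1 probe set gave 498 units in liver at 28 months and 255 units at 4 months, a ratio of 0.97 on the log2 scale against 1.63 for the brighter one. The direction was shared, but the size differed by more than the usual spread between probe sets, and the dimmer set stayed just under 2-fold. The brighter set carries the suffix of sets that can read more than 1 transcript, so signal from a near-identical transcript cannot be told apart there.

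In distal colon Mt1 had 7563 units at 28 months and 15480 units at 4 months, 2.05-fold lower. Mt2 had 4782 units in distal colon at 28 months and 10871 units at 4 months, 2.27-fold lower. Distal colon gave the highest signal of both genes among the 4-month arrays and the lowest of the 3 intestinal segments among the 28-month arrays. Among 12365 genes measured there, Mt2 and Mt1 stood at places 45 and 58 from the lowest. The dimmer Mt1 probe set gave 134 units in distal colon at 28 months and 235 units at 4 months, a log2 ratio of -0.81, so the Mt1 call was made by the brighter set only, and it was lost under quantile normalisation too.

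In spleen Mt2 had 3003 units at 28 months and 1354 units at 4 months, 2.22-fold higher. Mt1 had 3319 units in spleen at 28 months and 2271 units at 4 months, 1.46-fold higher and short of the threshold. The dimmer Mt1 probe set gave 131 units at 28 months and 86.1 units at 4 months, the latter below the floor. Its log2 ratio was 0.24, a bound. This comparison rests on the 4-month spleen array that carried acinar RNA, for which there is no other array, and the part of that RNA in the ratio was not tested.

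Both genes differed little with age in the small intestine. In jejunum Mt1 had 13642 units at 28 months and 15321 units at 4 months, and Mt2 had 8132 units at 28 months and 9591 units at 4 months. In ileum Mt1 had 9609 units at 28 months and 10539 units at 4 months, and Mt2 had 5880 units at 28 months and 6008 units at 4 months. All 4 ratios lay between -0.24 and -0.03 on the log2 scale. The dimmer Mt1 probe set gave 0.12 in ileum against -0.13 for the brighter one, so the sign of Mt1 there is unsettled. The ileum ratios rest on the young ileum array with its high upper-intestinal genes. The part of position along the gut in the ileum and jejunum ratios was not tested. Taking both ages, spleen was the lowest tissue for both genes, and jejunum lay above ileum with no overlap. Both jejunum arrays carried acinar RNA, and its part in this order was not tested. The places of distal colon and liver were not resolved, since their ranges over the 2 ages overlapped those of jejunum and ileum.

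**Figure D2:**
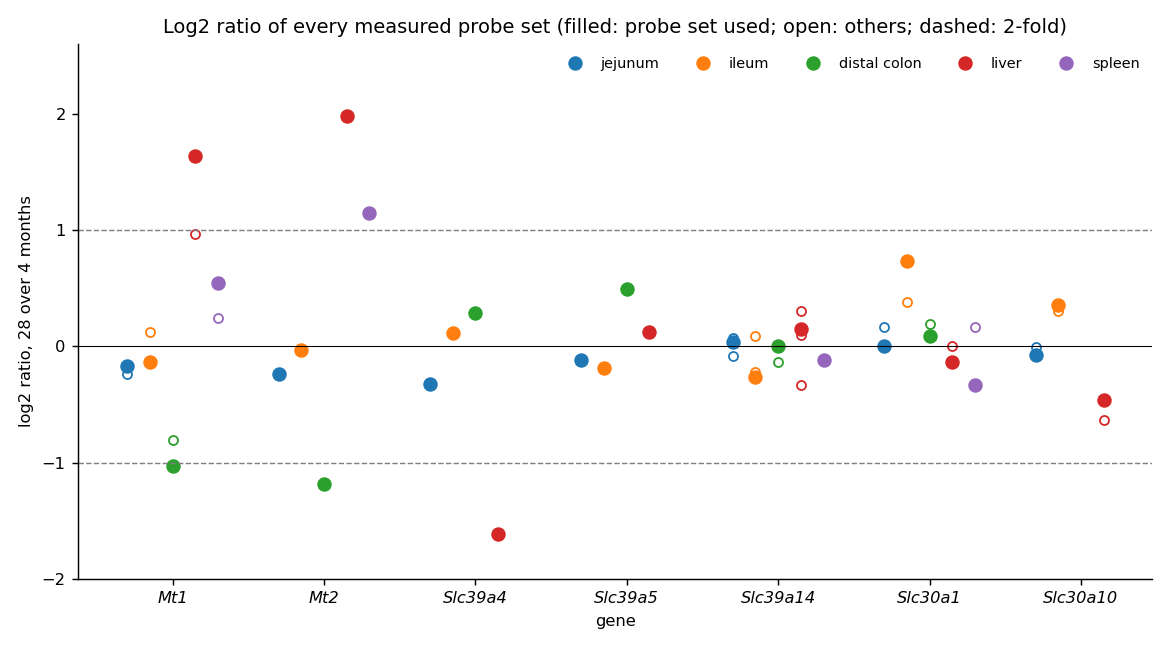
Log2 ratio of 28 over 4 months for every measured probe set of the 7 genes (vertical axis), by gene (horizontal axis) and tissue (colour); filled points are the probe sets used, open points the other probe sets, and dashed lines mark 2-fold. Liver and distal colon lie on opposite sides of 0 for Mt1 and Mt2, and the liver point of Slc39a4 lies at -1.61.

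Genes of other responses and cell types were read beside these ratios. In liver 7 of 22 acute phase genes were called higher and 0 lower, with a median log2 ratio of 0.70 against -0.02 for all genes, with Lcn2 at 5.64, Orm2 at 4.22, Saa2 at 4.13 and Saa1 at 2.65. The list summed to 347440 units at 28 months and 238442 units at 4 months. Socs3, a feedback inhibitor of cytokine signalling, had 1988 units in liver at 28 months and 859 units at 4 months. Of 10 glucocorticoid-responsive genes 0 were called in liver, with a median of 0.42 and Cdkn1a at 0.97. The 7 measured hepatocyte markers had a median of -0.05 in liver with 0 called. Their part in the metallothionein ratios was not tested.

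In distal colon 2 of 10 measured acute phase genes were called lower and 0 higher, with a median of -0.24. Socs3 was one of them, with 351 units at 28 months and 916 units at 4 months. Among 5 measured enterocyte genes 2 were called lower, Alpi (alkaline phosphatase) at -3.13 or lower and Fabp2 (a fatty acid binding protein) at -2.02, while Vil1, which encodes the microvillus protein villin, had 4456 units at 28 months and 4429 units at 4 months. Regional genes differed there too. Of 4 measured distal colon markers Aqp4, a water channel, was called higher, with 2767 units at 28 months and 846 units at 4 months. Car1, a carbonic anhydrase, was called lower, with 6485 units at 28 months and 22227 units at 4 months, while Hoxb13, a homeobox gene of the hindgut, had 8492 units at 28 months and 6355 units at 4 months. Of 6 measured ileal markers 1 was called lower in distal colon, Slc51a, a bile acid transporter subunit, at -2.47 or lower. The 3 B cell genes summed to 1991 units in distal colon at 28 months and 850 units at 4 months, and 2 of the 3 were called higher. In pooled whole tissue, fewer cells of a type and less RNA per cell cannot be told apart, and the part of these differences, or of position along the gut, in the metallothionein ratios was not tested. In spleen 3 of 8 measured acute phase genes were called higher, with Lcn2 at 1.79, Hp at 1.51 and Socs3 at 2284 units at 28 months and 997 units at 4 months.

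Mt1 and Mt2 lie side by side on chromosome 8 in RefSeq, with Mt3 and Mt4 next to them. Mt3, the metallothionein of the nervous system, reached 113 units on the ileum array of 4 months and was below the floor on the other 9 arrays. Mt4, the form of stratified epithelia, had at most 49.2 units on any array and was not measured. The nearest measured genes on either side were Bbs2, which acts in primary cilia, at -0.16 in liver and 0.06 in distal colon, and Nup93, which encodes a nuclear pore protein, at 0.11 in liver and -0.11 in distal colon. None of these neighbours was called in any tissue.

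**Figure D3:**
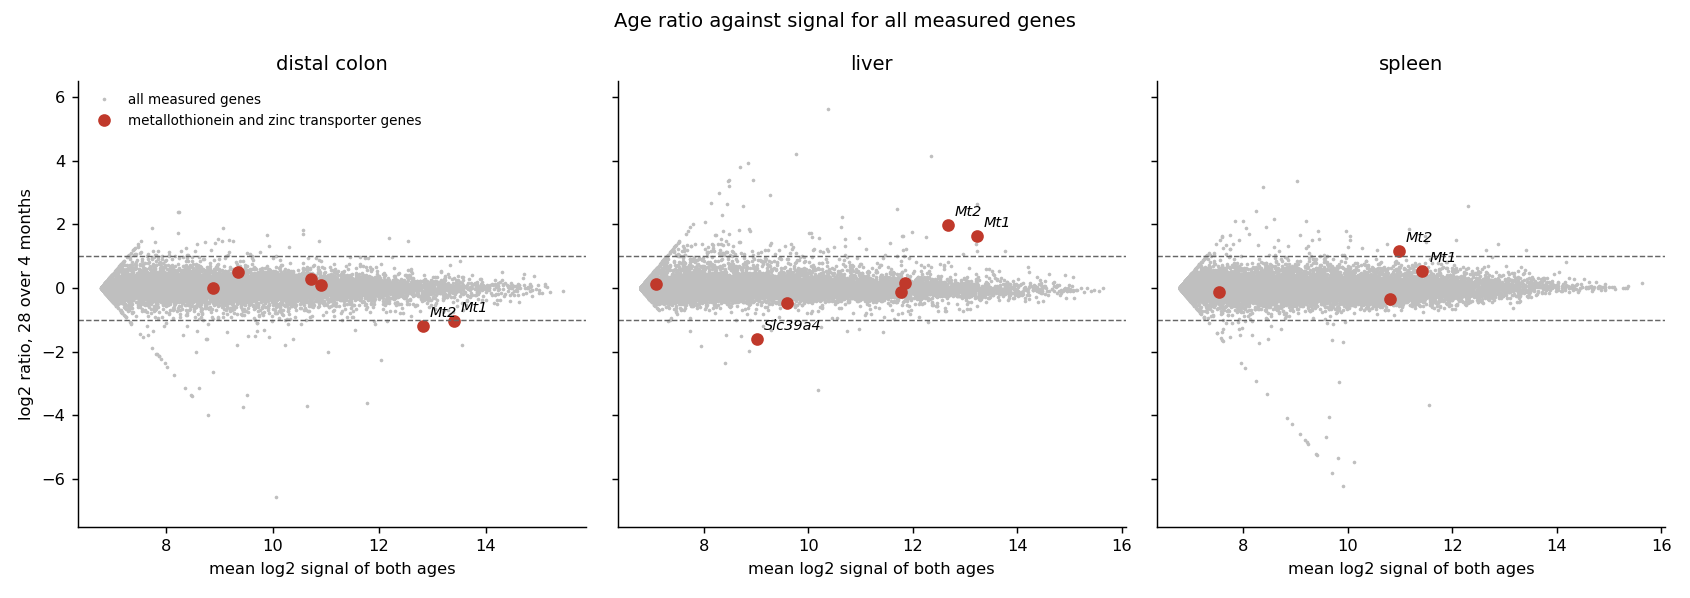
Log2 ratio of 28 over 4 months (vertical axis) against the mean log2 signal of both ages (horizontal axis) for all measured genes in distal colon, liver and spleen; grey points are single genes, red points the metallothionein and zinc transporter genes, and dashed lines mark 2-fold. Mt1 and Mt2 are bright genes that lie outside the band held by most genes of like signal in distal colon and liver.

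Slc39a4 encodes ZIP4, the importer of the apical membrane of enterocytes through which dietary zinc is taken up, and its loss in humans causes acrodermatitis enteropathica. In liver it had 297 units at 28 months and 906 units at 4 months, 3.06-fold lower. Its log2 ratio of -1.61 was at place 5 from the lowest of 12033 genes in liver. With the floor at percentile 75 of all signals the call was lost, at -0.91, a bound. A single probe set reads this gene, so no second reading was at hand. In the same liver arrays the enterocyte list had 5 measured genes with 0 called and a median of 0.01. Among these, Apoa4 had 13663 units in liver at 28 months and 11004 units at 4 months. Vil1, Lct, Alpi and Treh were below the floor in liver at both ages. The list thus cannot tell the part of enterocyte RNA in the Slc39a4 ratio, which was not tested.

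In the intestine, where the gene is known to act, the ratios stayed within 1.26-fold. Ileum had 4120 units at 28 months and 3802 units at 4 months, jejunum 2419 units at 28 months and 3037 units at 4 months, and distal colon 1859 units at 28 months and 1528 units at 4 months. Spleen gave 89.1 units at 28 months and 81.0 units at 4 months, both below the floor. Of 9 measured enterocyte genes 4 were called lower and 0 higher in jejunum, with a median of -0.81. In ileum 4 were called lower and 1 higher (Mep1a, a brush border protease, at 1.05), with a median of -0.19, and their part in the intestinal ratios was not tested. The order from ileum through jejunum, distal colon and liver to spleen held with no overlap between neighbours over the 2 ages.

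Slc39a5 encodes ZIP5, which lies on the basolateral side of enterocytes and of pancreatic acinar cells. It had 2010 units in ileum at 28 months and 2293 units at 4 months, and in jejunum 1756 units at 28 months and 1902 units at 4 months. Distal colon had 777 units at 28 months and 554 units at 4 months, 1.40-fold higher and short of the threshold. Liver was close to the floor, with 141 units at 28 months and 130 units at 4 months. Spleen had 105 units at 28 months and 102 units at 4 months, both below the floor, although the 4-month spleen array carried acinar enzymes. Ileum, jejunum, distal colon, liver and spleen followed in this order, with no overlap over the 2 ages, and 0 of 4 measured ratios were called. Both jejunum arrays carried acinar RNA as well, and its part in the jejunum levels was not tested.

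Slc39a14 encodes ZIP14, an importer of zinc, manganese and iron that is known to be raised in hepatocytes by interleukin-6. In liver it had 3903 units at 28 months and 3521 units at 4 months, a log2 ratio of 0.15. The other 3 probe sets of this gene gave 0.31, 0.10 and -0.33 in liver, the last from a dim set with 152 units at 28 months and 191 units at 4 months. The 4 sets were all short of 2-fold in liver, and their signs were not the same. The relation of these ratios to those of Mt1 and Mt2 was not tested. Jejunum had 2464 units at 28 months and 2405 units at 4 months, ileum 1288 units at 28 months and 1544 units at 4 months, distal colon 474 units at 28 months and 473 units at 4 months, and spleen 178 units at 28 months and 192 units at 4 months. The tissues stood in the order liver, jejunum, ileum, distal colon and spleen with no overlap over the 2 ages, and 0 of 5 ratios were called.

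Slc30a1 encodes ZnT1, the zinc exporter of the plasma membrane. In ileum it had 3552 units at 28 months and 2141 units at 4 months, 1.66-fold higher and short of 2-fold. Its second probe set gave 813 units at 28 months and 623 units at 4 months there, a log2 ratio of 0.38 against 0.73. This ratio rests on the young ileum array with its high upper-intestinal genes. Jejunum, at 1386 units at 28 months and 1383 units at 4 months, lay below ileum at both ages, and the part of position along the gut in the ileal ratio was not tested.

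Slc30a1 had 3347 units in liver at 28 months and 3667 units at 4 months, a log2 ratio of -0.13, and its second probe set gave 628 units at 28 months and 629 units at 4 months. In distal colon it had 1980 units at 28 months and 1863 units at 4 months. In spleen it had 1609 units at 28 months and 2025 units at 4 months, a ratio of -0.33, while the second set gave 0.17, so the sign in spleen is unsettled. The ratios of this gene in liver and distal colon, -0.13 and 0.09, were not called. Their relation to the ratios of Mt1 and Mt2 was not tested. Liver and ileum overlapped at the top of its tissue order, distal colon and spleen overlapped below them, and jejunum was lowest.

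Slc30a10 encodes ZnT10, which is known to export manganese from hepatocytes and enterocytes. In liver it had 658 units at 28 months and 908 units at 4 months, 1.38-fold lower, and its second probe set 652 units at 28 months and 1012 units at 4 months, 1.55-fold lower. Both sets read the same direction and both stayed short of 2-fold. Jejunum had 841 units at 28 months and 888 units at 4 months. Ileum was far lower, with 186 units at 28 months and 145 units at 4 months. Distal colon had 59.8 units at 28 months and 66.6 units at 4 months and spleen 73.2 units at 28 months and 70.1 units at 4 months, all below the floor. Jejunum and liver overlapped at the top, and ileum followed them with no overlap.

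The other genes of the pathway were read from a list of 22, holding Mt3, Mt4, Mtf1 and the remaining members of both transporter families. Of these 19 were measured in at least 1 tissue, which made 85 gene and tissue pairs, and 0 were called higher and 2 lower, or 2.35% against 1.43% of all pairs. The median log2 ratio of the pairs was 0.01. Slc30a3, which loads zinc into synaptic vesicles in the brain, had 404 units in ileum at 28 months and 882 units at 4 months, 2.18-fold lower. This call rests on the young ileum array, and 11 of 14 upper-intestinal genes were called lower in the same comparison, with sums of 21848 units at 28 months and 157339 units at 4 months. Their part in it was not tested. Slc30a2, which fills zinc-rich granules of Paneth and acinar cells, had 402 units in jejunum at 28 months and 845 units at 4 months, 2.10-fold lower. In ileum Slc30a2 had 578 units at 28 months and 858 units at 4 months, a ratio of -0.57. The 4 measured Paneth cell genes had medians of 0.09 in jejunum and -0.33 in ileum with 0 called, and 10 acinar genes had a median of 0.04 in jejunum with 0 called. In the same jejunum comparison 4 of 14 upper-intestinal genes were called lower. The part of these cells, or of position along the gut, in the Slc30a2 ratios was not tested.

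Mtf1, the metal sensor itself, had 435 units in liver at 28 months and 452 units at 4 months, and 396 units at 28 months and 396 units at 4 months in distal colon. Its ratio in jejunum was -0.37. Another probe set gave 0.52 in spleen and 0.44 in ileum, where the chosen one gave 0.03 and 0.07, so its ratios differ between probe sets. Slc39a10, an importer that is known to be repressed by zinc through Mtf1, had 611 units in ileum at 28 months and 336 units at 4 months, 1.82-fold higher. It stood at 0.55 in jejunum, 0.42 in liver, 0.18 in distal colon and -0.31 in spleen on the log2 scale. Slc39a8 (ZIP8), a carrier of zinc and manganese, was at 0.57 in ileum, 0.53 in spleen and 0.37 in jejunum. In liver the largest ratios of the list were those of Slc30a3 at -0.45, Slc39a10, Slc39a1 at 0.32 and Slc30a4 at -0.25. In distal colon they were Slc39a11 at 0.30, Slc30a4 at -0.25, Slc39a3 at 0.20 and Slc39a10.

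An age term over the 5 tissues, with tissue as a block, was fitted for this list with limma across 13981 genes. Of the 19 listed genes measured, 0 passed an adjusted p of 0.05, and 4 had an unadjusted p under 0.05. That count was 1 without jejunum, 2 without spleen and between 3 and 5 without any 1 of the other tissues. Slc39a3 had the lowest, with a mean log2 ratio of 0.20 (limma, Benjamini-Hochberg adjusted p = 0.62), and was higher at 28 months in 5 of 5 tissues. Its other probe set was lower in jejunum (-0.05) and liver (-0.08), so that direction holds for the chosen set only. Over all genes the share called was 0.0%, with 963 genes at an unadjusted p under 0.05. The tissues come from the same pools of mice and stand in for replicates here.

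**Figure D4:**
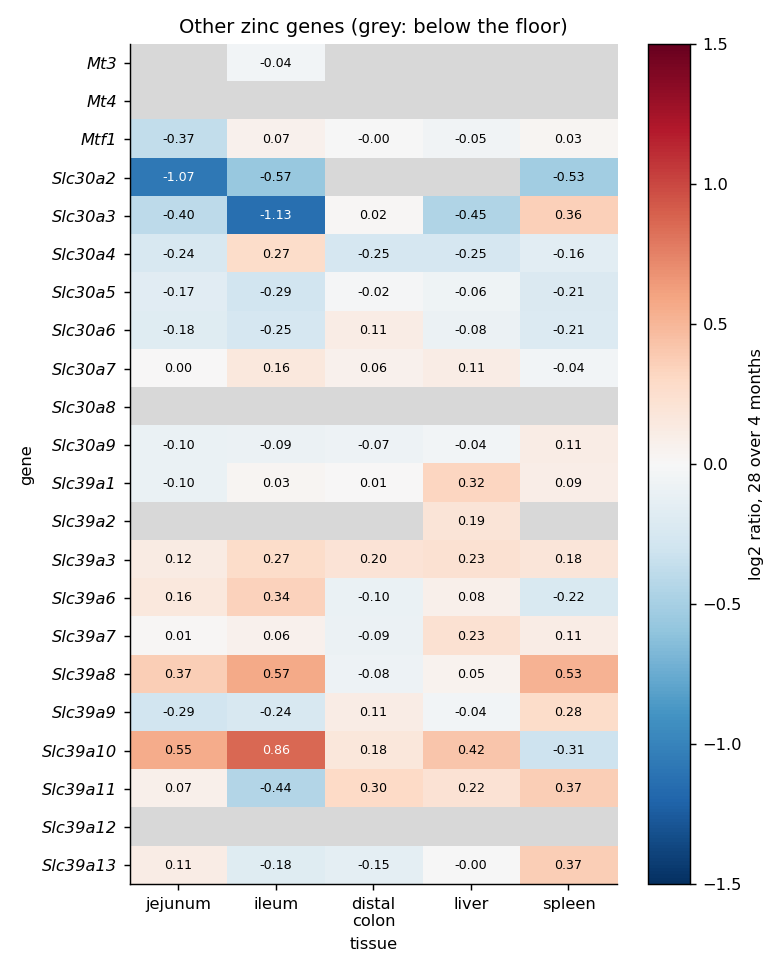
Log2 ratio of 28 over 4 months for the 22 other zinc genes (rows) in the 5 tissues (columns), with the value printed in each measured cell and grey where both ages were below the floor. The 2 cells past 2-fold are Slc30a2 in jejunum and Slc30a3 in ileum, both lower at 28 months.

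For each of the 7 genes the 3 genes most like it were taken by Pearson's r of log2 signal over the 10 arrays, among the genes reaching at least 2 floors on some array. The arrays share tissues in pairs, so r follows tissue levels as much as age. Mt2 was the gene nearest to Mt1, and Mt1 the nearest to Mt2, at r = 0.978. Cox15 (r = 0.942) and Araf (r = 0.924) came next for Mt1, and Slc1a4 (r = 0.904) and Araf (r = 0.904) for Mt2. Slc39a5 was nearest to Tmem139 (r = 0.995), the intestinal glucose transporter gene Slc5a1 (r = 0.995) and Pdzd3 (r = 0.995). Slc39a14 was nearest to Ehhadh (r = 0.993) and Acaa2 (r = 0.992), enzymes of fatty acid oxidation, and to Cps1 (r = 0.989) of the urea cycle. Slc39a4 was nearest to 4833439L19Rik (r = 0.983), Ctnnd1 (r = 0.980) and Fnbp1l (r = 0.978). For Slc30a1 the nearest were Spsb4 (r = 0.930), Tmem62 (r = 0.905) and Tbc1d15 (r = 0.902). For Slc30a10 they were Onecut2 (r = 0.969), Sdhaf3 (r = 0.963) and Gm14057 (r = 0.960).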

How the data were processed

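Each array came as log2 signals deposited by the authors, 1 value for each probe set, between 2.71 and 14.8. Array medians ran from 5.42 to 5.52, and the sources used here do not state a normalisation between arrays. MAS5 and affy are named, without version or role, per the submitters' processing notes. The log base, 2, was read off that range. Signals were un-logged and scaled per array, by factors from 2.42 to 2.57, to a mean of 500 units with 2% trimmed at each end. Of 45101 probe sets 34958 named 1 gene, 932 several, and 9211 were not in the annotation.

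The genes and lists were chosen with earlier results of these data known, and the mean log2 signal was taken to choose a gene's probe set, in place of the mean linear signal tried first, so that gene counts matched that earlier work. All 7 genes are named. From each list up to 4 genes per tissue with the largest ratios could be named, and beside them the called genes of the zinc list, the brightest markers, and 3 genes per member for likeness. Vil1, Socs3 in liver, Mep1a in ileum, the distal colon markers and the neighbours Bbs2 and Nup93 were chosen after their values were seen. Promoters were read from RefSeq (GRCm38.p6). Fold rule and age fit were tested on simulated data. Alternatives were floors at percentiles 25 and 75, no floor with 16 units added, quantile normalisation, lowess (span 0.3), the median over probe sets, leaving out sets whose suffix marks several transcripts, and thresholds of 1.5-fold and 3-fold. For the age fit they were 2 of these, no block, and each tissue left out. Tools were Python 3.11.15, numpy 2.4.6, pandas 2.3.3, statsmodels 0.14.6, matplotlib 3.10.9, R 4.3.3 and limma 3.58.1.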

Additional observations from a re-analysis of the deposited data

Results flagged for a closer look

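Mt1 and Mt2 moved in opposite directions in different tissues, which was not tested, since each tissue and age has 1 array. The distal colon ratios also cross the divide in array numbering, which the liver and spleen ratios do not. For Mt1 the log2 ratio was 1.63 in liver and -1.03 in distal colon, a difference of 2.67. For Mt2 it was 1.98 in liver and -1.18 in distal colon, a difference of 3.16, and 1.15 in spleen, which differs from distal colon by 2.33.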

How the results depend on the processing

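The count of called genes among the 7 moved in distal colon, where 2 were called, to 1 (Mt2) under quantile normalisation, under the median over probe sets and without probe sets that can read several transcripts. In liver, where 3 were called, it was 2 with the floor at percentile 75 (Slc39a4 lost) and 2 without those probe sets (Mt1 lost). At 3-fold it was 0 in distal colon and 0 in spleen, and at 1.5-fold it was 1 in ileum (Slc30a1). The count for the wider zinc list, 2, was 0 under the floor at percentile 75 and 0 at 3-fold. The other 63 counts stayed within 1.5 times, and no ratio past 2-fold changed sign. Those 63 include the liver counts and the counts without spleen or ileum, where no call could change. The ratio of Mt1 in liver ran from 0.97 to 1.79 and that of Slc39a4 in liver from -1.61 to -0.91, the last under the higher floor, which sets the dim side to a bound. Choosing the probe set by mean linear signal, added after the data were seen, kept the same genes called and moved Slc30a10 in liver to -0.64. Mt2 stayed past 2-fold under all 8 signal settings in liver, distal colon and spleen. A single probe set without such a suffix reads Mt2, and its signals lie above every floor tried. Settings of floor or probe set choice thus could not move its ratios. Only the 16 units added, quantile normalisation and lowess could. For the age term the count in the zinc list was 0 without the block and 0 to 0 with each tissue left out, and the count at an unadjusted p under 0.05, 4, was 0 without the block, 2 with 16 units added and 1 to 5 with each tissue left out. No paired analysis was possible within a tissue because the labels give 1 array per tissue and age. Signal over background limits Slc39a5 in liver and Slc30a10 in ileum, both near the floor.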

Other observations

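Of 11081 genes measured in both liver and distal colon, 3 were called higher in liver and lower in distal colon at 28 months, and 0 the other way round. They were Mt1, Mt2 and Socs3. This count was made after the metallothionein values were seen, so Mt1 and Mt2 met its rule by construction. The Mt1 call in distal colon was lost under quantile normalisation, and the distal colon ratios cross the divide in array numbering. Socs3 stood at 1.21 in liver, -1.38 in distal colon on the log2 scale, beside 1.98 and -1.18 for Mt2 in these tissues.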
